A study of Homo sapiens with 40 samples.

Results

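SPI1, SPIB, ETS1 and FLI1 encode transcription factors of the ETS family, POU2F1 and POU2F2 encode octamer-binding factors (OCT1 and OCT2), and POU2AF1 encodes OBF1, the B cell coactivator of the octamer factors. These 7 genes were taken by name with every probe annotated to them. They were chosen with earlier results of these data known, so counts of them set beside all genes are descriptions. A named probe was found for 6 of the 7 genes, 8 probes of 47231 on the array, and these 6 genes stood among 13746 genes tested. POU2F1 had 0 named probes in the annotation used here and was not analysed.

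GRANTA519, JEKO1, MAVER1 and REC1 are established human cell lines grown from mantle cell lymphoma, which is a cancer of mature B cells. Each line received OTX015, a BET bromodomain inhibitor also known as MK-8628, or DMSO as the vehicle, and was harvested at 2, 4, 8, 12 and 24 h. A single Illumina bead array was run for each line, treatment and time, which gave 20 OTX015 arrays and 20 DMSO arrays, and every group of treatment and time held 4 arrays from 4 lines. The labels give no other agent and no engineered change in any group, and the sources used here give neither the dose nor the number of cultures per line.

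PU.1, the product of SPI1, and its close relative SPIB bind purine-rich sites with a GGAA core and act in B cell development and in transcription of B cell receptor signalling genes. PU.1 also drives myeloid development, where its level is part of the choice between lineages. OCT1 is made in most cells and OCT2 mainly in B cells and neurons, both bind the octamer sequence found in immunoglobulin promoters and in H2B histone promoters, and OBF1 docks on octamer-bound OCT1 or OCT2. ETS1 and FLI1 are broader ETS activators of lymphoid and blood-forming cells, and their genes are neighbours, with 0 protein-coding genes between them in the RefSeq annotation.

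Between 35.3% and 46.9% of probes were detected on an array, where detected means a signal above the array's background by a margin that noise alone would pass with a one-sided p of 0.01. The estimated background lay between 89.2 and 113 intensity units, and all 40 arrays correlated best with an array of their own line. The 8 arrays at 2 h had backgrounds of 101.6 to 110.4, the JEKO1 OTX015 array at 12 h had the highest background (113) and the lowest detected share (35.3%), and the remaining arrays lay between 89.2 and 101.7. CD79A, CD79B and CD74, markers of B cells, were detected on all arrays, whereas the PAX5 probe was detected on 0 of 40. Cyclin D1 (CCND1), the usual marker of mantle cell lymphoma, was detected on 10 OTX015 arrays and 15 DMSO arrays and on none from JEKO1. In REC1 it was detected on every DMSO array and on no OTX015 array. These counts rest on a single probe, so they do not show that JEKO1 lacks the RNA. SOX11, another marker of this lymphoma, was detected on all 40. CD5, the remaining marker listed, was detected on 1 OTX015 array and 5 DMSO arrays, and on none from GRANTA519, JEKO1 or REC1.

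Over all times, 4 of the 6 measured genes fell with OTX015 and none rose. The means over the 4 lines were lower by 1.68-fold (SPIB) to 2.85-fold (SPI1), with POU2AF1 and POU2F2 between them, while ETS1 and FLI1 did not pass the test. By the same test, limma with Benjamini-Hochberg adjustment over all genes at an adjusted p of 0.05, 14.4% of all genes were lower and 14.5% higher, and at an unadjusted p under 0.05 all 6 member genes were lower and 0 higher, where 5535 of 13746 genes passed in either direction. Those 5535 genes were not split by direction, so no share of lower genes stands beside the count of 6. The median change of the 13746 genes was 0.0057 on the log2 scale. In these RNA measurements of whole cultures, fewer cells that express a gene and less RNA of it per cell cannot be told apart. The size of these changes depended on the background correction more than their calls did. Without it SPI1 changed by -0.76 and POU2F2 by -0.37 over all times, and with the authors' series matrix values by -0.73 and -0.37, each past the threshold.

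**Figure D1:**
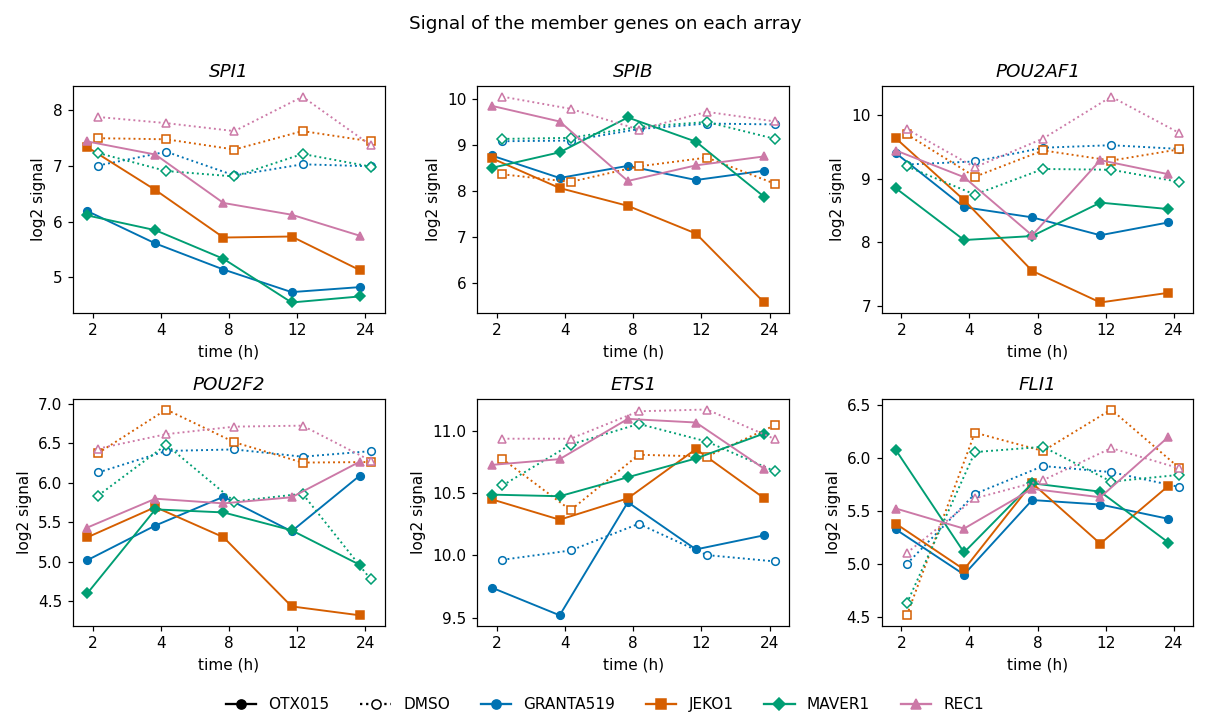
Normalized log2 signal (vertical axis) of the probe that represents each of the 6 measured genes, by time of exposure in h (horizontal axis, equal steps). Filled symbols with solid lines are OTX015 arrays, open symbols with dotted lines are DMSO arrays, and colours are the 4 cell lines, with 1 array per point. SPI1 separates from 8 h on, with the highest OTX015 array at 6.34 and the lowest DMSO array at 6.81 at that time.

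SPI1 was read by 2 probes, and the values given are those of the probe with the higher mean, as log2 signals in the order GRANTA519, JEKO1, MAVER1 and REC1. At 2 h SPI1 measured 6.19, 7.34, 6.11 and 7.44 with OTX015, against 7.01, 7.50, 7.23 and 7.88 with DMSO. At 4 h SPI1 measured 5.61, 6.57, 5.85 and 7.21 with OTX015, against 7.26, 7.48, 6.91 and 7.77 with DMSO. Every line was already below its own DMSO array at these times, although the 2 groups overlapped, with REC1 and JEKO1 the highest lines in both. At 8 h the SPI1 signals were 5.14, 5.71, 5.33 and 6.34 with OTX015, against 6.83, 7.30, 6.81 and 7.63 with DMSO. At 12 h the SPI1 signals were 4.73, 5.73, 4.55 and 6.12 with OTX015, against 7.03, 7.63, 7.22 and 8.25 with DMSO. At 24 h the SPI1 signals were 4.82, 5.13, 4.66 and 5.75 with OTX015, against 7.0, 7.44, 6.99 and 7.38 with DMSO. From 8 h on the groups no longer overlapped, with every OTX015 array below every DMSO array. GRANTA519 and MAVER1 were lowest, and the probe was not detected there at 12 and 24 h with OTX015, so the background limits how large those falls could read.

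The SPI1 fall averaged -1.51 ± 0.26 log2 over all times (SD of 4 lines, adjusted p = 0.000677), a 2.85-fold lower signal, and all 20 OTX015 arrays lay below their paired DMSO arrays. The same full count of 20 was found for 3.37% of all genes. For every gene, the p-values at single times rest on a spread shared over the 5 times of the same 4 lines. The SD printed beside them is that of the 4 lines at that time alone. SPI1 was the only 1 of the 6 that passed at each time, with changes of -0.63 ± 0.42 at 2 h (adjusted p = 0.0199), -1.05 ± 0.45 at 4 h (adjusted p = 0.000181) and -1.51 ± 0.17 at 8 h (adjusted p = 3.73e-06). The change was -2.25 ± 0.33 at 12 h, 4.74-fold lower, and -2.11 ± 0.33 at 24 h, 4.32-fold lower (adjusted p = 4.33e-08 and 3.64e-08). With no background correction these changes were -1.14 and -0.98, and with the series matrix values -1.09 and -0.95, and in the OTX015 groups at both times 2 of 4 arrays did not detect the probe. The call at 2 h depended on which lines entered: without GRANTA519 the change was -0.57 (adjusted p = 0.108), and without MAVER1 it was -0.47 (adjusted p = 0.202). The effect at 24 h exceeded that at 2 h by -1.48 (95% interval -1.87 to -1.09, adjusted p = 7.43e-05), a contrast in which 5.67% of genes moved lower and 5.78% higher. In DMSO alone SPI1 differed by -0.21 between 24 h and 2 h (95% interval -0.45 to 0.04, adjusted p = 0.310). The second SPI1 probe changed by -1.38 ± 0.18 over all times (adjusted p = 0.000275 over 27197 probes), also lower in all 20 comparisons, and 10.8% of probes were lower in that test. It did not pass at 2 h (-0.45, adjusted p = 0.143) and passed at each later time.

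**Figure D2:**
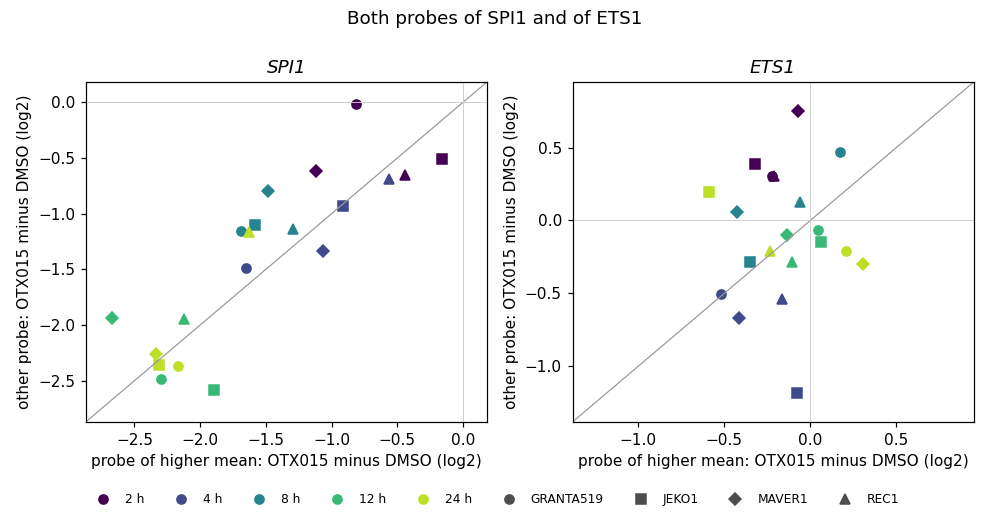
OTX015 minus DMSO in log2 signal for both probes of SPI1 (left) and of ETS1 (right), with the probe of higher mean on the horizontal axis and the other probe on the vertical axis. Each point is 1 line and time, colours are times and shapes are lines, and the diagonal marks equal values. For SPI1 all 20 points lie below 0 on both axes, whereas for ETS1 the 4 points at 2 h lie below 0 on 1 probe and above 0 on the other.

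SPIB, a close relative of PU.1 in the ETS family, was lower at 12 and 24 h. Its promoter window is shown because SPIB stands on the list of octamer targets used here, so the octamer can be looked for in it. The window runs from 250 bases before to 50 bases after the annotated start on the plus strand, from RefSeq on GRCh38.p14 at chr19:50418688-50418987, and capitals mark a TATA box (TATAAA) 29 bases before the start.
SPIB promoter: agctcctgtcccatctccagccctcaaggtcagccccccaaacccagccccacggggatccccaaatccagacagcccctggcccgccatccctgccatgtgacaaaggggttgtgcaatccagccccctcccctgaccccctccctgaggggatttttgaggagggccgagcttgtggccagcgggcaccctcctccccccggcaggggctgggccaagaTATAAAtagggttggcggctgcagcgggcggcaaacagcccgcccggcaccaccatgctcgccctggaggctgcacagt
Searched on both strands, these letters held 0 octamers (ATGCAAAT or ATTTGCAT) and 0 copies of a purine-box core (GAGGAA or TTCCTC). Over 35116 RefSeq windows of the same length, 1.77% held the octamer, 27.9% the purine-box core and 11.5% the TATA box. A match or its absence in such a window describes letters only.

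At 2 h SPIB measured 8.77, 8.71, 8.50 and 9.85 with OTX015, against 9.08, 8.36, 9.13 and 10.05 with DMSO. At 4 h SPIB measured 8.28, 8.06, 8.84 and 9.51 with OTX015, against 9.10, 8.20, 9.16 and 9.79 with DMSO. At 8 h SPIB measured 8.55, 7.68, 9.60 and 8.22 with OTX015, against 9.35, 8.54, 9.40 and 9.34 with DMSO. Up to 8 h the groups overlapped widely, and JEKO1 at 2 h and MAVER1 at 8 h were above their DMSO arrays. At 12 h the SPIB signals were 8.24, 7.07, 9.07 and 8.56 with OTX015, against 9.47, 8.73, 9.50 and 9.72 with DMSO. At 24 h the SPIB signals were 8.44, 5.57, 7.87 and 8.75 with OTX015, against 9.45, 8.16, 9.13 and 9.51 with DMSO. All 4 lines were below their DMSO arrays at both times, JEKO1 by the widest margin, yet the groups still overlapped, with JEKO1 the lowest line in DMSO as well.

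Over all times SPIB changed by -0.75 ± 0.21 (SD of 4 lines, adjusted p = 0.00206), 1.68-fold lower, with 18 of 20 comparisons below 0. The change was -0.20 ± 0.41 at 2 h (adjusted p = 0.705), -0.38 ± 0.30 at 4 h (adjusted p = 0.320) and -0.64 ± 0.58 at 8 h (adjusted p = 0.0736), none past the threshold. SPIB passed at 12 h (-1.12 ± 0.51, adjusted p = 0.00274) and at 24 h (-1.40 ± 0.81, adjusted p = 0.000332). At 8 h MAVER1 decided the call, since without it the change was -0.93 (adjusted p = 0.0293). The effect at 24 h exceeded that at 2 h by -1.21 (95% interval -1.95 to -0.47, adjusted p = 0.0337). In DMSO the difference between 24 h and 2 h was -0.09 (adjusted p = 0.744).

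POU2F2, which encodes OCT2, was lower from 2 h to 12 h. Its window is shown as the promoter of the octamer factor that was lower at the earliest time. It lies on the minus strand at chr19:42132397-42132696 of GRCh38.p14, from RefSeq, inside the annotated gene, and capitals mark 1 purine-box core, read as TTCCTC, 61 bases before the start.
POU2F2 promoter: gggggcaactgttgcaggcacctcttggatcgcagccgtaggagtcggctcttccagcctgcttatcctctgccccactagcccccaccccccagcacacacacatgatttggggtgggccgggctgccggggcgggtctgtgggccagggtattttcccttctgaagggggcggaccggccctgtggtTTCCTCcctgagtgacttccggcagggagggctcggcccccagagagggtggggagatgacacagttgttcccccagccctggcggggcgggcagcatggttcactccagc
The window held 0 octamers and 0 TATA boxes. Of 3 windows listed for POU2F1, the octamer factor gene without a named probe, 1 held the octamer and 3 the purine-box core. No window was found for SPI1, POU2AF1, ETS1 or FLI1 in the table used here.

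At 2 h POU2F2 measured 5.02, 5.31, 4.60 and 5.43 with OTX015, against 6.13, 6.37, 5.84 and 6.43 with DMSO. At 4 h POU2F2 measured 5.46, 5.69, 5.66 and 5.80 with OTX015, against 6.40, 6.92, 6.48 and 6.61 with DMSO. At both times every OTX015 array was below every DMSO array. At 8 h the POU2F2 signals were 5.82, 5.31, 5.62 and 5.74 with OTX015, against 6.42, 6.51, 5.76 and 6.71 with DMSO. At 12 h the POU2F2 signals were 5.38, 4.43, 5.40 and 5.81 with OTX015, against 6.33, 6.25, 5.86 and 6.72 with DMSO. At 24 h the POU2F2 signals were 6.09, 4.32, 4.96 and 6.26 with OTX015, against 6.40, 6.26, 4.78 and 6.28 with DMSO. The groups overlapped slightly at 8 h, did not at 12 h, and overlapped at 24 h, when REC1 was level with its DMSO array, MAVER1 was above it and JEKO1 remained far below. The POU2F2 probe was near background throughout, detected on 15 OTX015 arrays and 19 DMSO arrays, which limits the size of its falls.

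Over all times POU2F2 changed by -0.87 ± 0.41 (SD of 4 lines, adjusted p = 0.00641), 1.82-fold lower, with 19 of 20 comparisons below 0. It passed at 2 h (-1.10 ± 0.10, adjusted p = 0.00741), 4 h (-0.95 ± 0.20, adjusted p = 0.0096), 8 h (-0.73 ± 0.46, adjusted p = 0.0429) and 12 h (-1.03 ± 0.57, adjusted p = 0.00503), and not at 24 h (-0.52 ± 0.97, adjusted p = 0.144). With no background correction the 4 changes that passed were between -0.44 and -0.33, each past the threshold, and without JEKO1 the change at 24 h was -0.05. Without GRANTA519 the changes at 2, 4 and 8 h were -1.10, -0.96 and -0.77 with adjusted p-values of 0.0745, 0.0751 and 0.157, and without REC1 the change at 8 h was -0.65 (adjusted p = 0.204). The difference of the effect between 24 h and 2 h was 0.58, in the opposite direction to SPI1, SPIB and POU2AF1, and did not pass (95% interval 0.03 to 1.14, adjusted p = 0.168).

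POU2AF1, whose product OBF1 is needed for germinal centres in mice, was near its DMSO level at 2 h and low from 8 h. At 2 h POU2AF1 measured 9.40, 9.63, 8.85 and 9.44 with OTX015, against 9.22, 9.69, 9.19 and 9.78 with DMSO. At 4 h POU2AF1 measured 8.55, 8.66, 8.04 and 9.02 with OTX015, against 9.27, 9.03, 8.75 and 9.18 with DMSO. GRANTA519 was above its DMSO array at 2 h, all 4 lines were below at 4 h, and the groups overlapped at both times. At 8 h the POU2AF1 signals were 8.39, 7.55, 8.10 and 8.11 with OTX015, against 9.48, 9.44, 9.15 and 9.63 with DMSO. At 12 h the POU2AF1 signals were 8.11, 7.06, 8.62 and 9.29 with OTX015, against 9.52, 9.28, 9.14 and 10.28 with DMSO. At 24 h the POU2AF1 signals were 8.31, 7.21, 8.52 and 9.07 with OTX015, against 9.46, 9.46, 8.95 and 9.71 with DMSO. The groups were apart at 8 h, and at 12 and 24 h they overlapped through REC1, with JEKO1 lowest.

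Over all times POU2AF1 changed by -0.88 ± 0.33 (SD of 4 lines, adjusted p = 0.00328), 1.85-fold lower, with 19 of 20 comparisons below 0. The changes of -0.14 ± 0.25 at 2 h (adjusted p = 0.794) and -0.49 ± 0.28 at 4 h (adjusted p = 0.188) did not pass. POU2AF1 passed at 8 h (-1.39 ± 0.40, adjusted p = 0.00041), 12 h (-1.29 ± 0.72, adjusted p = 0.000782) and 24 h (-1.12 ± 0.81, adjusted p = 0.00219). Without JEKO1 the change at 24 h was -0.74 (adjusted p = 0.0106). The effect at 24 h exceeded that at 2 h by -0.98 (95% interval -1.62 to -0.34, adjusted p = 0.0451), while DMSO alone gave -0.07 (adjusted p = 0.795).

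ETS1, an activator made at high level in resting lymphocytes, changed little. Over the 20 arrays with OTX015 its signal ran from 9.52 over a median of 10.48 to 11.10, against 9.95, 10.80 and 11.17 with DMSO, and the groups overlapped over most of their range. The mean change was -0.16 ± 0.08 (SD of 4 lines, 95% interval -0.30 to -0.01, adjusted p = 0.110), with 15 of 20 comparisons below 0, and it passed at no time (adjusted p-values of 0.117 to 0.890). The second ETS1 probe changed by -0.09 ± 0.09 (adjusted p = 0.367) and parted from the first at early times. On that probe the change was 0.44 at 2 h (adjusted p = 0.0423) and -0.72 at 4 h (adjusted p = 0.000583), while the first probe gave -0.21 and -0.29, neither past the threshold. ETS1 is thus uncertain at 2 and 4 h.

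FLI1, an ETS factor of blood stem cells and megakaryocytes, was higher with OTX015 at 2 h and lower at 4 h. At 2 h FLI1 measured 5.33, 5.38, 6.08 and 5.53 with OTX015, against 5.0, 4.52, 4.63 and 5.11 with DMSO. At 4 h FLI1 measured 4.90, 4.95, 5.11 and 5.34 with OTX015, against 5.66, 6.24, 6.06 and 5.62 with DMSO. The order of the groups was reversed between these times without overlap at either, and 3 of 4 DMSO arrays at 2 h and 2 of 4 OTX015 arrays at 4 h did not detect the probe. Over all genes such separation was counted only for OTX015 below DMSO, so no share stands beside the separation at 2 h. At 8 h the FLI1 signals were 5.61, 5.77, 5.76 and 5.71 with OTX015, against 5.93, 6.07, 6.11 and 5.79 with DMSO. At 12 h the FLI1 signals were 5.56, 5.19, 5.68 and 5.63 with OTX015, against 5.87, 6.46, 5.78 and 6.10 with DMSO. At 24 h the FLI1 signals were 5.43, 5.74, 5.20 and 6.20 with OTX015, against 5.73, 5.91, 5.84 and 5.91 with DMSO. The groups were narrowly apart at 8 and 12 h and overlapped at 24 h, when REC1 was above its DMSO array.

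FLI1 changed by 0.76 ± 0.51 at 2 h (adjusted p = 0.0153) and by -0.82 ± 0.42 at 4 h (adjusted p = 0.0046), and not past the threshold at 8 h (-0.26 ± 0.12, adjusted p = 0.390), 12 h (-0.53 ± 0.51, adjusted p = 0.0537) or 24 h (-0.20 ± 0.39, adjusted p = 0.499). Without MAVER1 the change at 2 h was 0.54 (adjusted p = 0.166) and that at 12 h was -0.68 (adjusted p = 0.0353), while without JEKO1 the change at 12 h was -0.29 (adjusted p = 0.381). With no background correction the changes were 0.26 at 2 h (adjusted p = 0.0393) and -0.30 at 4 h (adjusted p = 0.00921), and in GRANTA519 at 2 h the deposited intensity was 128.1 with OTX015 and 129.8 with DMSO. The DMSO arrays themselves moved: FLI1 was 1.03 higher at 24 h than at 2 h in DMSO (95% interval 0.69 to 1.38, adjusted p = 0.00146), a rise found for 4.36% of genes, with falls for 3.09%. The 2 h DMSO arrays had backgrounds of 103.4 to 110.4, against 89.2 to 101.7 on later DMSO arrays, and the part of the background in the FLI1 result was not tested. Over all times FLI1 changed by -0.21 ± 0.18 (SD of 4 lines, 95% interval -0.41 to -0.01, adjusted p = 0.103) with 15 of 20 comparisons below 0. Without the 2 h arrays the change was -0.45 (adjusted p = 0.0202).

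**Figure D3:**
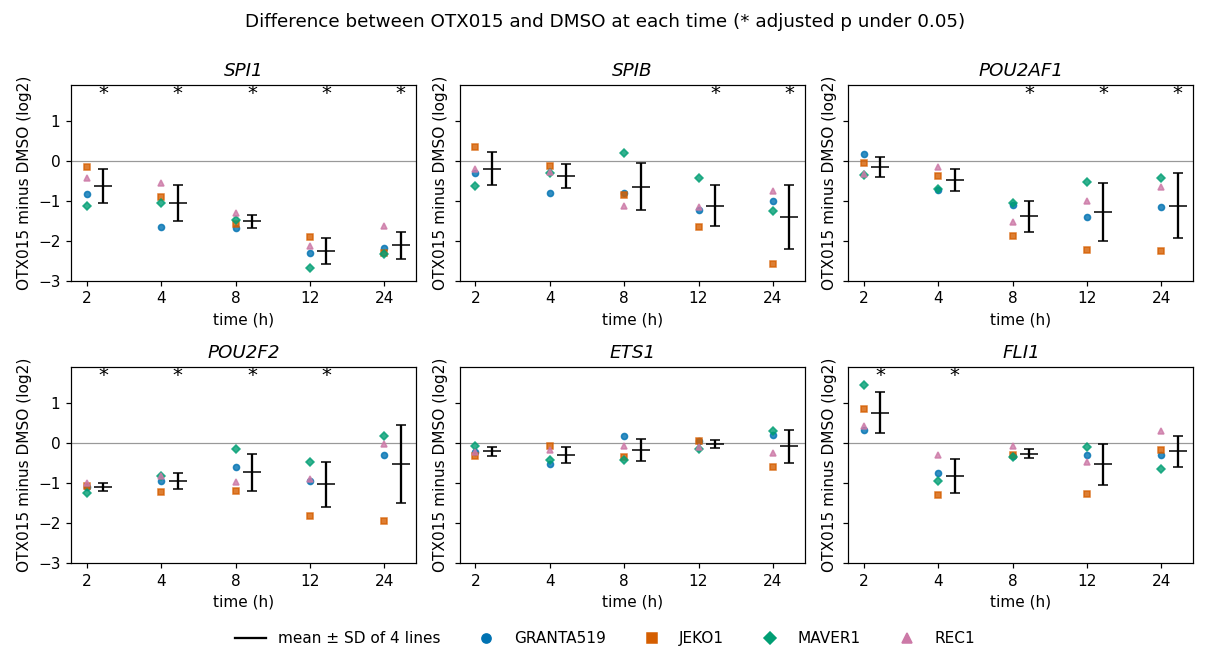
OTX015 minus DMSO in log2 signal (vertical axis) for each of the 6 genes at each time in h (horizontal axis, equal steps). Coloured points are the 4 lines, bars beside them are the mean ± SD of 4 lines, and a star marks an adjusted p under 0.05. The stars rest on a spread shared over the 5 times, not on the bars. SPI1 carries a star at all 5 times, POU2F2 at the first 4, POU2AF1 at the last 3, SPIB at the last 2, FLI1 at 2 h above 0 and at 4 h below 0, and ETS1 at none.

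Read by time, the calls moved from POU2F2 and SPI1 to SPI1, SPIB and POU2AF1. At 2 h, 2 of the 6 genes were lower (SPI1 and POU2F2) and 1 higher (FLI1), where 4.84% of all genes were lower and 4.96% higher. At 4 h, 3 were lower (SPI1, POU2F2 and FLI1), against 10.1% of all genes. At 8 h, 3 were lower (SPI1, POU2AF1 and POU2F2), against 10.7% of all genes. At 12 h, 4 were lower (SPI1, SPIB, POU2AF1 and POU2F2), against 11.9% of all genes, and all 4 also passed without JEKO1, the line whose OTX015 array had the high background. At 24 h, 3 were lower (SPI1, SPIB and POU2AF1), against 11.4% of all genes. Genes whose highest OTX015 array lay below their lowest DMSO array made up 1.35% of all genes at 2 h, 2.31% at 4 h, 2.70% at 8 h, 2.80% at 12 h and 2.70% at 24 h. Among the 6 genes these were POU2F2 at 2 h, POU2F2 and FLI1 at 4 h, SPI1, POU2AF1 and FLI1 at 8 h, SPI1, POU2F2 and FLI1 at 12 h, and SPI1 at 24 h.

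Within single lines the test had only the 5 times as replicates, so its p-values carry the spread between times, not between cultures. GRANTA519 had 4 of the 6 genes lower, against 12.4% of all genes. In that line SPI1 changed by -1.73 ± 0.58 (SD of 5 times, adjusted p = 0.000124), SPIB by -0.83 ± 0.34 (adjusted p = 0.0326), POU2AF1 by -0.84 ± 0.62 (adjusted p = 0.0273) and POU2F2 by -0.78 ± 0.32 (adjusted p = 0.00252). JEKO1 also had 4 lower, against 13.5% of all genes. There SPI1 changed by -1.37 ± 0.85 (adjusted p = 0.00128), SPIB by -0.98 ± 1.18 (adjusted p = 0.0133), POU2AF1 by -1.36 ± 1.06 (adjusted p = 0.000896) and POU2F2 by -1.45 ± 0.40 (adjusted p = 4.57e-06). MAVER1 had 1 lower, SPI1 at -1.73 ± 0.73 (adjusted p = 0.000162), against 10.7% of all genes, and POU2F2 missed the threshold there (-0.50 ± 0.56, adjusted p = 0.0507). REC1 had 2 lower, SPI1 at -1.21 ± 0.71 (adjusted p = 0.00565) and POU2F2 at -0.74 ± 0.41 (adjusted p = 0.0063), against 7.63% of all genes. Over the 5 times of a line, every OTX015 array was below every DMSO array for SPI1, SPIB and POU2F2 in GRANTA519 (6.84% of all genes), for POU2F2 in JEKO1 (5.44%), for SPI1 in MAVER1 (5.69%) and for POU2F2 in REC1 (4.50%). The test of the difference between lines itself passed for none of the 6 genes, with adjusted p-values of 0.0856 for SPI1, 0.674 for SPIB, 0.227 for POU2AF1, 0.0528 for POU2F2, 0.836 for ETS1 and 0.587 for FLI1, where 9.70% of genes passed. The larger POU2F2 fall in JEKO1 therefore did not pass a test of its own.

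In DMSO alone 5 of the 6 genes differed between lines, where 73.4% of all genes did. For all 6 genes the 5 times of a line stood in for replicates in these comparisons of lines in DMSO. Their p-values therefore carry the spread between times, not between cultures. Between pairs of lines the share of all genes that differed was 53.8% for GRANTA519 with JEKO1, 46.4% for GRANTA519 with MAVER1, 53.8% for GRANTA519 with REC1, 46.7% for JEKO1 with MAVER1, 52.3% for JEKO1 with REC1 and 50.4% for MAVER1 with REC1. SPI1 averaged 7.02 ± 0.15 in GRANTA519, 7.47 ± 0.12 in JEKO1, 7.03 ± 0.19 in MAVER1 and 7.78 ± 0.32 in REC1 (SD of 5 times). REC1 was thus highest and JEKO1 next (adjusted p = 0.0192 between JEKO1 and REC1), and GRANTA519 and MAVER1 did not differ beyond their spread (-0.01, 95% interval -0.23 to 0.21). SPIB averaged 9.29 ± 0.19 in GRANTA519, 8.40 ± 0.24 in JEKO1, 9.26 ± 0.17 in MAVER1 and 9.68 ± 0.27 in REC1. REC1 was again highest and JEKO1 lowest, while GRANTA519 and MAVER1 did not differ beyond their spread (0.02, 95% interval -0.25 to 0.30). POU2AF1 averaged 9.39 ± 0.14 in GRANTA519, 9.38 ± 0.25 in JEKO1, 9.04 ± 0.19 in MAVER1 and 9.72 ± 0.40 in REC1. Its order was REC1, then GRANTA519 and JEKO1 with no difference beyond their spread (0.01, 95% interval -0.25 to 0.27), then MAVER1.

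POU2F2 averaged 6.33 ± 0.12 in GRANTA519, 6.46 ± 0.28 in JEKO1, 5.74 ± 0.61 in MAVER1 and 6.55 ± 0.19 in REC1. Only MAVER1, which includes the 4.78 at 24 h, stood apart, below the other lines (adjusted p = 0.00651 between GRANTA519 and MAVER1, 0.00136 between JEKO1 and MAVER1 and 0.00046 between MAVER1 and REC1). ETS1 averaged 10.04 ± 0.12 in GRANTA519, 10.76 ± 0.25 in JEKO1, 10.82 ± 0.20 in MAVER1 and 11.03 ± 0.13 in REC1. GRANTA519 was lowest, MAVER1 did not differ from JEKO1 or REC1 beyond the spread, and JEKO1 was below REC1 (-0.27, adjusted p = 0.0420). FLI1 averaged 5.64 ± 0.37 in GRANTA519, 5.84 ± 0.77 in JEKO1, 5.68 ± 0.61 in MAVER1 and 5.70 ± 0.38 in REC1, and none of the 6 pairs of lines passed (adjusted p = 0.612 over the 4 lines).

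**Figure D4:**
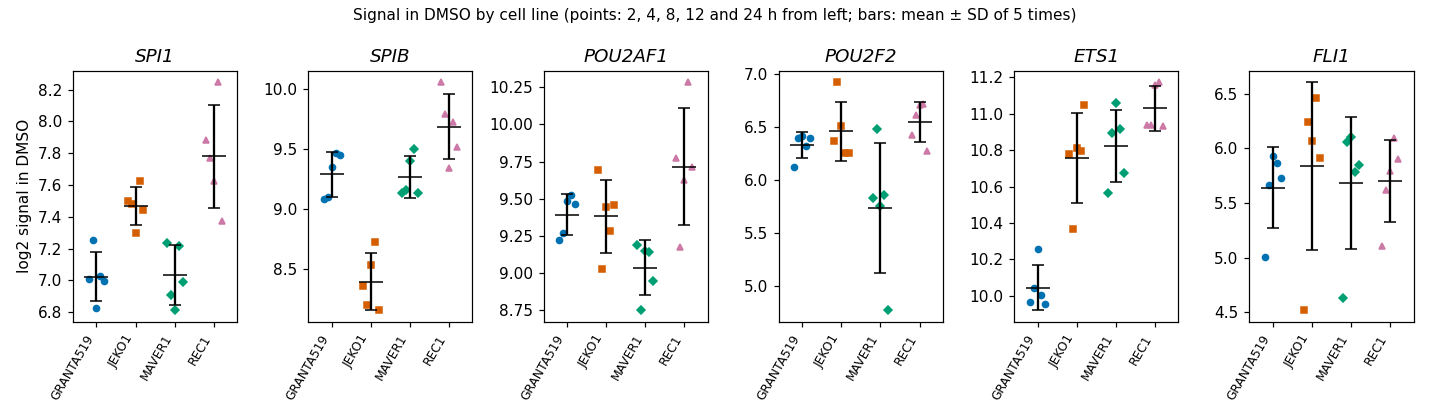
Log2 signal in DMSO (vertical axis, a separate scale for each gene) by cell line, with 1 point per time from 2 h on the left to 24 h on the right, and bars at the mean ± SD of 5 times. REC1 has the highest mean of SPI1 (7.78), SPIB (9.68) and POU2AF1 (9.72), GRANTA519 the lowest of ETS1 (10.04), and the lines overlap for FLI1.

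Genes linked to these factors were taken from 5 lists drawn up from general knowledge, and they share members with one another. The lists too were chosen with earlier results of these data known, so their counts are descriptions. Among other ETS family genes 19 were measured, of which 0 were higher and 3 lower over all times (0 and 5 at an unadjusted p under 0.05), with a median change of -0.14. The count of lower genes is near the share of all genes, 14.4%, and nothing particular to the family follows from it. The 3 were GABPA, a broadly made activator (-0.47 ± 0.22, adjusted p = 0.0119), ETV6, a repressor (-0.37 ± 0.17, adjusted p = 0.0142), and ELK4, a serum response cofactor (-0.36 ± 0.19, adjusted p = 0.0194). Their sizes lay below those of SPI1 and SPIB. Only 3 other POU genes were measured, POU3F1 (-0.09), POU4F1 (-0.12) and POU6F1 (-0.13), and none passed by limma over all times, adjusted or unadjusted. At single times POU6F1 was lower at 2 h (-0.55, adjusted p = 0.0050), where 4.84% of all genes were lower. POU3F1, detected on 2 OTX015 arrays and 4 DMSO arrays, was lower at 12 h (-0.47, adjusted p = 0.0217), against 11.9% of all genes.

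Among 20 measured partners and regulators of PU.1 and the octamer factors, 2 were higher and 7 lower, where 14.5% of all genes were higher and 14.4% lower, with a median of -0.15. IKZF1, which encodes Ikaros, fell by 1.11 ± 0.18 on the log2 scale (adjusted p = 0.000677). PRDM1, the plasma cell repressor BLIMP1, changed by -0.83 ± 0.59 (adjusted p = 0.0232) and was detected on 3 OTX015 arrays and 13 DMSO arrays. MYB, an activator of blood progenitors, changed by -0.75 ± 0.23 (adjusted p = 0.00239). JUN, an AP-1 subunit that binds PU.1, rose by 1.16 ± 0.34 (adjusted p = 0.00162), and PIM1, a serine/threonine kinase, rose by 0.47 ± 0.35 (adjusted p = 0.0351).

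Of 23 measured genes listed as PU.1 or SPIB targets, 16 were lower and 0 higher (17 and 0 at an unadjusted p under 0.05), where 14.4% of all genes were lower and 14.5% higher, with a median of -0.62. The largest fall was that of CD72, an inhibitory B cell coreceptor, at -1.97 ± 0.68 (adjusted p = 0.00204). PTPN6, the phosphatase SHP-1, changed by -1.62 ± 1.01 (adjusted p = 0.0139), and CYBB, the phagocyte oxidase subunit gp91phox, by -1.20 ± 0.34 (adjusted p = 0.00142). The list overlaps with the B cell markers, of which all 6 measured were lower as well, with MS4A1 at -1.0 ± 0.50 (adjusted p = 0.0072). The summed signal of the 7 B cell markers with a probe ran from 4478 to 17487 on OTX015 arrays and from 11383 to 18177 on DMSO arrays, and its part in the result was not tested. Of 10 myeloid probes 7 did not reach the detection minimum, and the other 3 were those of CD14, ITGAM and LYZ. CD14 was detected on 17 OTX015 arrays and 20 DMSO arrays. ITGAM was detected on 6 and 8, among them all from GRANTA519, and LYZ on 8 and 7. Single T cell genes were also detected in some lines. CD3D was detected on all 10 arrays of REC1, and CD247 on 10 OTX015 arrays and 14 DMSO arrays, among them all from GRANTA519 and JEKO1. The summed signal of the 10 T and NK cell probes ran from 902 to 2114 on OTX015 arrays and from 929 to 2203 on DMSO arrays. Over all times none of 3 measured myeloid, 4 T and NK cell and 3 erythroid or megakaryocyte markers passed by limma (0, 1 and 0 at an unadjusted p under 0.05). At single times CD247 was lower at 8 h (-1.22, adjusted p = 0.0320), where 10.7% of all genes were lower. Of 23 genes of the target list that have a promoter window, 16 held the purine-box core in it, where 31.8% of 27305 genes hold it. The core was also held by 10 of 19 partners and regulators, 10 of 21 other ETS genes, 6 of 20 octamer targets and 3 of 11 other POU genes. The 23 genes with a window were counted apart from the 23 measured genes.

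The octamer target list split by kind of gene, a split made after its values were seen. Of 22 measured genes, 6 were higher and 11 lower, with a median of -0.45, where 14.5% of all genes were higher and 14.4% lower. H2BC21 rose by 2.36 ± 0.46 (adjusted p = 0.000677), H2BC5 by 2.36 ± 0.41 (adjusted p = 0.000569) and H2BC12 by 1.30 ± 0.59 (adjusted p = 0.00501), all encoding histone H2B. Of 5 measured H2B genes 4 rose, with a median of 1.30 for the 5. The fifth, H2BC3, was near background, detected on 6 OTX015 arrays and 0 DMSO arrays, and its change was 0.21 ± 0.45 (adjusted p = 0.384). Both RNA polymerase III genes measured, RNU6-1 and RPPH1, rose (0.24 ± 0.06 and 0.95 ± 0.25, adjusted p = 0.0271 and 0.00147). The H2B and RNA polymerase III values are probe signals of labelled cRNA. Which forms of these RNAs the probes read was not tested. The other 15 had 11 lower and 0 higher, with a median of -0.62, among them SPIB itself. TNFRSF13B, the TACI receptor, changed by -1.35 ± 0.70 (adjusted p = 0.00741), CXCR5, a chemokine receptor of B cells, by -1.21 ± 0.79 (adjusted p = 0.0165), and JCHAIN, the joining chain of secreted antibody, by -1.21 ± 0.79 (adjusted p = 0.0166).

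The octamer itself is shown in its surroundings for the 4 measured H2B genes that have it in their window, to set the letters beside these changes. H2BC3 did not pass the test, and the other 3 rose. Each line gives 30 bases on the gene's strand, the minus strand in each case, from RefSeq on GRCh38.p14, with the octamer in capitals in its ATTTGCAT orientation, at chr6:26043815-26043844, chr6:26124031-26124060, chr6:27146886-27146915 and chr1:149886710-149886739.
H2BC3: ataaattccatATTTGCATaaaccccaccc
H2BC4: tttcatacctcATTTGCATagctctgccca
H2BC12: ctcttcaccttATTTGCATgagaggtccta
H2BC21: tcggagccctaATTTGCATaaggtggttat
The octamer began 120 bases before the annotated start in H2BC3, 123 bases before it in H2BC4 and 46 bases before it in H2BC12 and H2BC21. Of 20 listed octamer targets with a window, 5 held the octamer and all 5 were H2B genes, while 2.19% of 27305 genes hold it. The windows of H2BC5, which rose as much as H2BC21, held none. No gene of the list that fell and had a window held an octamer in it.

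**Figure D5:**
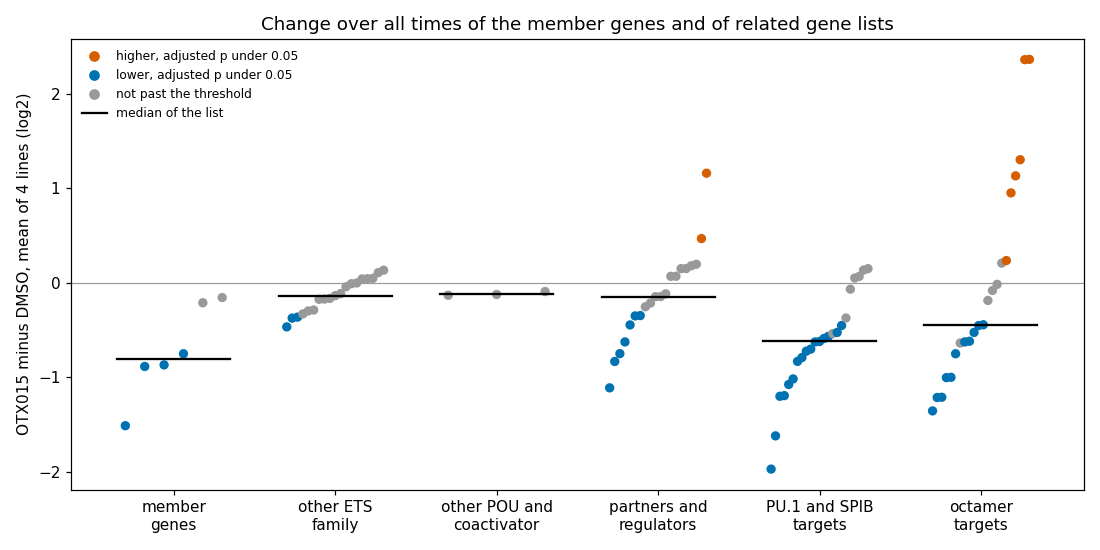
OTX015 minus DMSO over all times in log2 signal, mean of 4 lines (vertical axis), for the 6 measured genes and the measured members of each list (horizontal axis, genes ordered by change within a list). Colours mark genes that were higher or lower at an adjusted p under 0.05, and black bars are list medians. The bars stand at -0.62 for the PU.1 and SPIB targets and at -0.14 for other ETS genes, and the octamer targets reach from -1.35 to 2.36.

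The genes whose pattern was most like that of each factor were found by Pearson's r, given as a description because the points share lines and times. Over the 40 arrays SPI1 was most like CLPP, a mitochondrial protease subunit (r = 0.953), and MRPS24, a mitochondrial ribosomal protein (r = 0.942). Over the 20 differences SPI1 was most like GPSM3 (r = 0.874) and NDUFA9 (r = 0.873). SPIB was most like SYPL1 (r = 0.854) and SH3BP1 (r = 0.848) over arrays, and STXBP2 (r = 0.876) and TAPBP (r = 0.867) over differences. POU2AF1 was most like SASH3, a lymphocyte adaptor (r = 0.885), and EHBP1L1 (r = 0.873) over arrays, and TBC1D10C (r = 0.885) and IL27RA (r = 0.877) over differences. For POU2F2 these were KLHL42 (r = 0.791) and RBSN (r = 0.765) over arrays, and RHOC (r = 0.897) and NCOA1 (r = 0.868) over differences. Such an r does not carry the mean change. By limma over all times POU2F2 changed by -0.87, RHOC by 0.24 (adjusted p = 0.151) and NCOA1 by 0.37 (adjusted p = 0.0390). ETS1 had lower values over differences, with MED28 at 0.757 and DHH at 0.701, and LRRC40 (r = 0.882) and DCAF7 (r = 0.879) over arrays. FLI1 had its lower values over arrays, with TTC33 at 0.697 and SREK1 at 0.696, and NEK2 (r = 0.876) and ALKBH8 (r = 0.870) over differences.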

How the data were processed

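The non-normalized table deposited by the authors held intensities of 70.9 to 22105, with 1 value per probe and array. The submitters' processing notes name GenomeStudio, with no version. Control probes were not used here. The deposited series matrix held the authors' log2 values with column medians of 6.71. It is not centred by probe, all 40 columns matched their own arrays best by correlation, and its normalization is not stated in the sources used here. It served as an alternative. Per the labels' protocols RNA was extracted with TRIzol, had an integrity number above 8 and was labelled as biotinylated cRNA with the Ambion TotalPrep kit. No sample column was left unused.

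The background of an array was taken at the mode of its log2 signal density, with the spread from signals below the mode. A normal-exponential correction with an offset of 16, quantile normalization and log2 were then applied (limma 3.58.1, R 4.3.3). Quantile scaling hides any change shared by all transcripts. Of 47231 probes 27197 were detected on at least 4 arrays (one-sided p of 0.01) and kept. The annotation used here gave 1 symbol to 30113 probes, several to 8 and none to 17110, and 30074 of the single symbols matched the RefSeq gene table of GRCh38.p14. A gene was represented by its kept probe of highest mean, which gave 13746 genes.

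OTX015 was tested on the differences between arrays of the same line and time, with two-sided p-values adjusted over all genes. The effect over all times was fitted on 4 line means, the effect at a time or in a line as a coefficient of 20 differences, and differences between lines or times in a model with line and time. Pairing comes from the shared cell line, and paired arrays deviated together from their group means (r of 0.756 to 0.886 across genes over 20 pairs). Precision is limited by the number of arrays. The fits were tested on simulated data. Alternatives changed the background correction, offset, normalization, filter, probe rule, pairing, lines and times.

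The text names the 7 genes with all their probes, the 3 largest rises and falls past the threshold in each linked list, every measured gene of a list with 6 or fewer, and the 2 genes most like each factor over arrays and over differences. Marker genes, RNU6-1, RPPH1, H2BC3 and H2BC4 were named outside this rule, after their values were seen. The genes and lists were chosen with earlier results of these data known, and the lists come from general knowledge. SNRPC on the octamer list encodes a protein of the U1 particle and is no known octamer target.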

Additional observations from a re-analysis of the deposited data

Results flagged for a closer look

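Of 96 groups of 4 or 5 values tested for a value far from the others, 3 had one, and chance gives about 1 in 20. SPIB in JEKO1 at 8 h in DMSO, at a log2 signal of 8.54, lay below the other 3 lines, which were close together at 9.34 to 9.40. POU2F2 in MAVER1 at 24 h in DMSO, at 4.78, lay below the other 3 lines (6.26 to 6.40) and was not detected. The FLI1 difference between OTX015 and DMSO in REC1 at 8 h, at -0.082, lay apart from the other 3 lines (-0.34 to -0.30).

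The OTX015 effect differed between 24 h and 2 h by test for 4 genes, by -1.48 for SPI1, -1.21 for SPIB, -0.98 for POU2AF1 and -0.97 for FLI1 (adjusted p = 7.43e-05, 0.0337, 0.0451 and 0.0261). In this contrast 5.67% of all genes moved lower and 5.78% higher. For FLI1 the low 2 h DMSO arrays enter it.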

How the results depend on the processing

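The falls of SPI1, SPIB, POU2AF1 and POU2F2 over all times passed under every alternative in which their probe was tested, by -1.73 to -0.73, -0.89 to -0.55, -1.07 to -0.68 and -0.99 to -0.37. With probes detected on all 40 arrays only SPIB, POU2AF1 and ETS1 were tested, and 2 of them were lower. Among all genes kept by that filter 1542 were lower and 1834 higher. The size of that gene set is not given here, so these counts are not shares. The count of 4 lower genes became 5 with no background correction, an offset of 50 or the series matrix, through ETS1 (adjusted p = 0.0329, 0.0499 and 0.0302), and without the 2 h arrays, through FLI1. With no replicate block the 4 passed (adjusted p = 3.94e-08 for SPI1, 0.0232 for SPIB, 6.42e-05 for POU2AF1 and 7.77e-05 for POU2F2), while the count of all genes was 1104 lower and 1179 higher, against 1974 and 1995 with the pairing. Leaving out a line gave 1238 to 1627 genes lower and 1175 to 1668 higher, and 4 lower member genes each time. Median scaling gave 2265 lower and 1494 higher.

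Leaving out lines at single times was added after seeing the data. ETS1 changed sign at 2 h as the mean of its probes (0.11, adjusted p = 0.533), at 24 h without JEKO1 (0.092, range over lines left out -0.20 to 0.092) and at 12 h without MAVER1 (0.00035, range -0.065 to 0.00035), none past the threshold, and the mean of its probes passed at 4 h (-0.51, adjusted p = 0.000726). SPIB at 8 h passed with no background correction, an offset of 50 or the series matrix (adjusted p = 0.0218, 0.0328 and 0.0241), and FLI1 at 12 h with median scaling (-0.68, adjusted p = 0.0174), an offset of 50 or the series matrix. In single lines POU2F2 in MAVER1 passed under 4 of 5 alternatives, SPIB in REC1 under 3 and POU2AF1 in REC1 under 2. The cause was not tested. A signal near background limits POU2F2 and FLI1 at all times and SPI1 from 12 h.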
